A study of Mus musculus with 36 samples.

Results

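The glutathione S-transferases, UDP-glucuronosyltransferases and sulfotransferases are the main enzymes of phase II metabolism, which joins a polar group to a drug, hormone or waste product so that it can leave the body. The 48 genes described here are the rows of the expression table whose symbols name a soluble glutathione S-transferase (Gsta, Gstm, Gstp, Gstt, Gstk, Gsto or Gstz with a number, 19 genes), a UDP-glucuronosyltransferase of families 1 to 3 (Ugt1, Ugt2 or Ugt3, 18 genes) or a cytosolic sulfotransferase (Sult with a number, 11 genes). They were taken by name out of 18760 genes, and the rule uses no expression value.

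Bulk RNA sequencing was made from C57BL/6 wild-type mice, matched for age and sex, that bore tumors of MC38, a colon carcinoma line of mouse origin. Treatment was a high dosage of anti-PD1 plus anti-CTLA4 antibodies (immune checkpoint blockade, ICB) or control IgG, and all of them carried a tumor, so the control is a tumor-bearing and not a healthy animal. Liver, kidney, lung, heart, skeletal muscle and tumor were frozen, and total RNA of each was sequenced in 3 IgG and 3 ICB libraries, 36 in all and 12 groups. Ages, doses and treatment times were not among the labels. No label says whether the 3 samples of a group are different mice, so p-values measure only how these samples scatter, and that scatter may be technical. The sample titles carry a number that differs within a group and recurs across tissues, and no label says what it stands for. The main fits across tissues treated all libraries as independent.

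Glutathione S-transferases attach the tripeptide glutathione to electrophiles, UDP-glucuronosyltransferases attach a sugar from a UDP-sugar (usually glucuronic acid), and sulfotransferases attach sulfate from the donor PAPS. Liver is the textbook site of these reactions, and kidney and gut carry sets of their own. Many of the genes stand side by side as near copies, and the Ugt1a genes share their last exons, each adding a first exon and a promoter of its own, so the start of the transcript decides which enzyme is made.

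Several copies within a cluster had their highest levels in different organs, and the pair shown first is Ugt2b5, highest in liver, and Ugt2b38, highest in kidney. Both encode enzymes of the family that glucuronidates steroids. The 250 bases before their start sites are shown because they align with 81.5% identity (212 of 260 alignment columns) while the levels of the genes go in opposite directions between the organs. They are from RefSeq on GRCm38.p6 (mm10), minus strand, at chr5:87140341-87140590 and chr5:87424204-87424453, written 5′ to 3′. Capitals mark the 38 bases in each that differ from, or have no partner in, the other sequence.
Ugt2b5: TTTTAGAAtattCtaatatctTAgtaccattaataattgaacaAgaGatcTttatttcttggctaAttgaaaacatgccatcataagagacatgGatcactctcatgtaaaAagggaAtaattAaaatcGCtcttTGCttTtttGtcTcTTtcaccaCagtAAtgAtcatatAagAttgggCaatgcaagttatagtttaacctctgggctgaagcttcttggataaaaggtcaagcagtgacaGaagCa
Ugt2b38: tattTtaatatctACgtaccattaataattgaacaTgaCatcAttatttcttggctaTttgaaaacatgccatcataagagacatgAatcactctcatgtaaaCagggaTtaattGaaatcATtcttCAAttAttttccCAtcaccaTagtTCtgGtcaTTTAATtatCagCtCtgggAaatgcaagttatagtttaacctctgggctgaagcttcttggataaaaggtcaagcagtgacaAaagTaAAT
Capitals at the outer ends are bases that the other window does not reach. Inside, the differences lie closest together past the middle, and the stretch nearest to the start is almost the same in both. Ugt2b37, which lies between Ugt2b5 and Ugt2b38 on the chromosome, was 85.2% identical to Ugt2b38 and 73.0% to Ugt2b5 over these 250 bases. The windows of Ugt2b1, Ugt2b34, Ugt2b35 and Ugt2b36, all highest in liver, were 50.7% to 60.2% identical to Ugt2b5. To Ugt2b38 they were 52.1% to 60.4% identical, so likeness did not follow the leading organ there.

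In the Ugt1a cluster, where each gene has its own first exon, the promoters of a pair with different leading organs are shown, with the 250 bases before the start (plus strand, RefSeq, GRCm38.p6). Ugt1a9 (chr1:88070529-88070778) had its highest level in liver and Ugt1a10 (chr1:88055161-88055410) in kidney. Capitals again mark bases that differ from, or have no partner in, the other sequence.
Ugt1a9: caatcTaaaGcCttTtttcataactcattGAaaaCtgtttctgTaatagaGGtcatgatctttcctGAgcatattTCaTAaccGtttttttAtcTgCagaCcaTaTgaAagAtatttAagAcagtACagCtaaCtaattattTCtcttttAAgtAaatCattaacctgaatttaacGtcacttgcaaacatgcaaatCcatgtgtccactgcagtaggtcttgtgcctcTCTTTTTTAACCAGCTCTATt
Ugt1a10: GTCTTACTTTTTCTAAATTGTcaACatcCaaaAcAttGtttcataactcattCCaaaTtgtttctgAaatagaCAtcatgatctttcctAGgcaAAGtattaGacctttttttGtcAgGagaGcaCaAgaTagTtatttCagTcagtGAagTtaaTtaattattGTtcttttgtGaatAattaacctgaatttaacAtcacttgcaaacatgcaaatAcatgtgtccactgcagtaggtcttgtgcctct
The windows of Ugt1a9 and Ugt1a10 were 69.2% identical. Ugt1a1, the bilirubin-conjugating enzyme, was also highest in liver, and its window was 49.8% identical to that of Ugt1a9. The window of Ugt1a7c, which was highest in kidney, shared 52.3% with Ugt1a1 and 51.9% with Ugt1a9.

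Promoters were found in the table for 42 of the 48 genes (53 promoters, since some genes have several). Searched on both strands, the HNF4 motif CAAAGTCCA matched in 0 of them, against 0.384% of all 32851 promoters in the table. The antioxidant response motif TGACNNNGC matched in 3 (Gsta3, Gstm5 and Gstm7; 10.2% of all promoters) and the core motif of the aryl hydrocarbon receptor, GCGTG, in 9, of 8 genes (28.2% of all promoters). A match is a description of letters in a short window and not a binding site. Hnf4a itself, which encodes a transcription factor of liver and kidney epithelium, had 247 FPKM in liver and 189 in kidney, with at most 0.225 FPKM as the mean of Hnf4a in any of the other 4 tissues.

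Levels are given as FPKM, fragments scaled by the authors to gene length and sequencing depth, which allows genes to be compared with each other. The values also carry a normalization factor per library that differs by tissue. It was 0.532 to 0.645 in liver, 0.813 to 0.902 in heart, 1.45 to 1.6 in lung and 1.47 to 1.55 in tumor. A lower factor gives a higher FPKM. Where tissues lie close, as for Gsta4 and Gsto1, the leading tissue can depend on this scaling. Gstm2 and Sult5a1, highest in liver by FPKM, depended on it as well. As shares of the summed FPKM of a library, Gsta4, Gsto1, Gstm2 and Sult5a1 each had their highest mean in lung. A gene was counted as detected in a tissue when at least 3 of its 6 libraries reached 1 FPKM. By that rule 43 of the 48 genes were detected in at least 1 tissue, with 40 in liver, 27 in kidney, 19 in lung, 14 in heart, 14 in muscle and 10 in tumor. The 5 others (Gsta1, Gsto2, Sult2b1, Sult4a1 and Sult6b1) stayed below it everywhere. The highest mean FPKM lay in liver for 29 genes, in kidney for 12 and in heart for 2 (Gsta4 and Gsto1). By FPKM the lowest library of that organ exceeded the highest library of any other tissue in 24 of the 29 (Gstm2 among them) and 10 of the 12. It did so in neither heart gene. In bulk tissue, fewer cells of a type and less RNA per cell cannot be told apart.

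**Figure D1:**
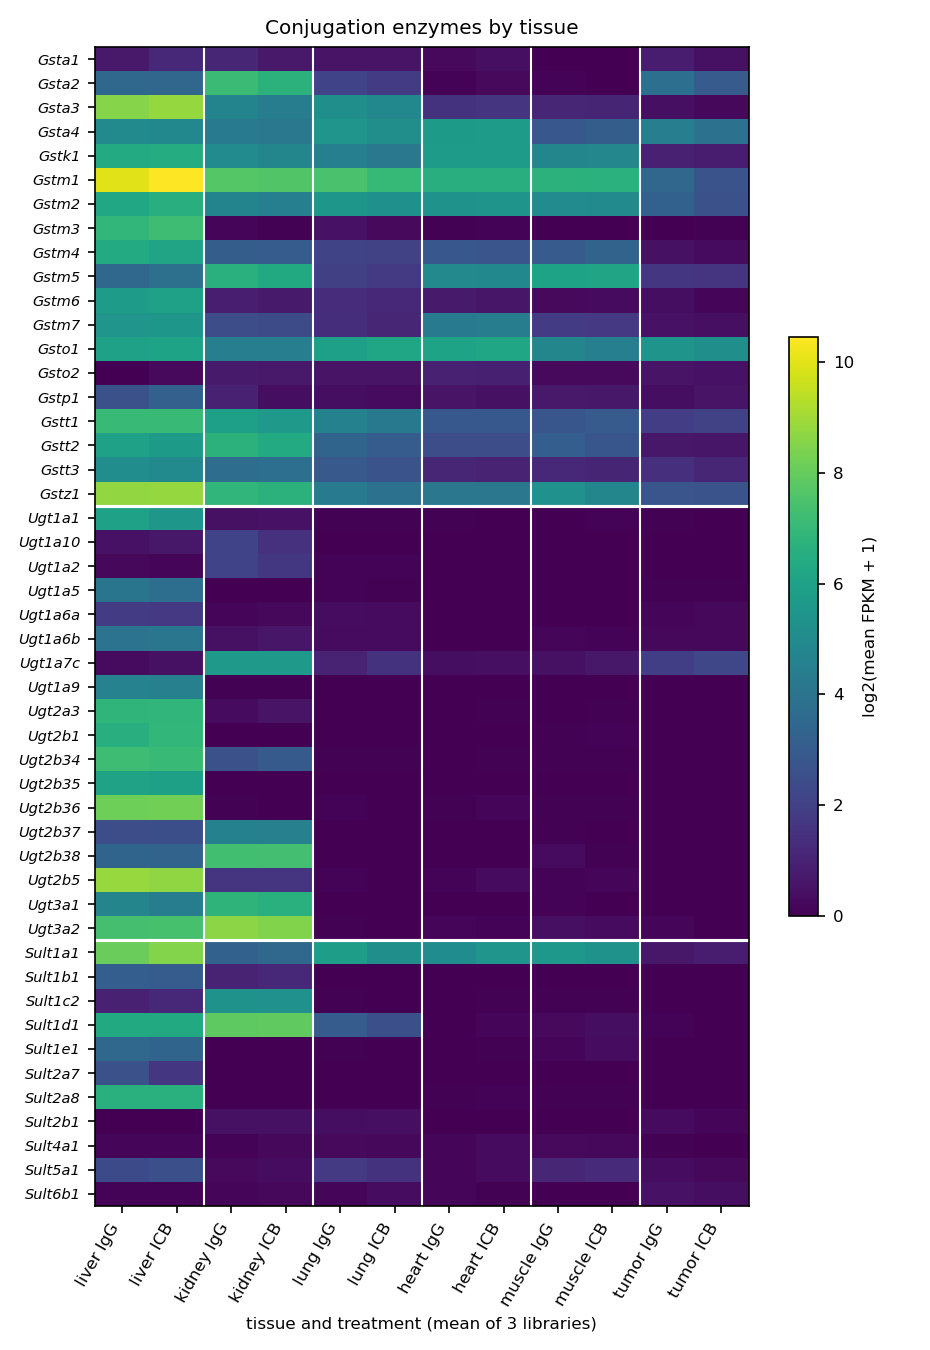
Mean level of each of the 48 genes (rows, grouped as Gst, Ugt and Sult) in the 12 groups of 3 libraries (columns); colour is log2(mean FPKM + 1). The Ugt rows are bright in liver and kidney alone, the Gst rows are spread over all organs, and the IgG and ICB columns of a tissue look alike.

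The labels of the tissues were checked against their markers. The liver albumin gene Alb had a mean of 45018 FPKM in liver and at most 16.4 elsewhere, the kidney tubule gene Kap stood at 10874 FPKM in kidney, the lung gene Scgb1a1 at 22715 in lung, and Myh6 and Acta1 at 5781 and 30348 in heart and muscle. The tumor libraries held the division marker Mki67 at 38.9 FPKM while the epithelial markers Epcam, Krt8 and Krt18 were near 0, at 0.11, 0.327 and 0.119 FPKM. One tumor library (ICB replicate 2) also held muscle transcripts, with Acta1 at 180.3 FPKM. The libraries held 19005189 to 25512980 reads, recovered from the deposited values.

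The glutathione S-transferases were the most widely expressed of the 3 families. Their summed level was 2891 FPKM in liver, 814 in kidney, 412 in lung, 398 in heart, 319 in muscle and 96.9 in tumor, and 8 genes (Gsta4, Gstm1, Gstm2, Gstm5, Gsto1, Gstt1, Gstt3 and Gstz1) were detected in all 6 tissues. The sums of the Ugt genes were 1463 FPKM in liver and 726 in kidney but only 0.809 in heart to 3.73 in tumor. The Sult genes summed to 522 FPKM in liver, 287 in kidney, 38.5 to 55.8 in heart, muscle and lung, and 1.54 in tumor. The FPKM of all genes together differed by tissue, at 665363 to 925573 in a liver library and 351507 to 408466 in kidney. They were 451530 to 593211 in heart, 493655 to 579516 in muscle, 210038 to 287165 in lung and 203235 to 217337 in tumor. The family sums are therefore not shares of a library, and as shares the gaps and the order of the tissues can differ. As shares the means of liver and kidney lie close for the Ugt and for the Sult genes.

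Among the glutathione S-transferases, Gstm1, the main mu-class enzyme, had the highest level of all 48 genes. Its lowest, median and highest library stood at 433, 1244 and 1899 FPKM in liver and at 174, 195 and 260.4 in kidney. Every liver library was above every library of another tissue, while kidney overlapped lung and lung overlapped muscle. Liver exceeded the mean of the other 5 tissues by 3.87 ± 0.17 on the log2(FPKM + 1) scale (SE, 6 libraries a tissue, as for all tissue differences; limma, adjusted p = 1.93e-18). The 4 genes per family with the highest tissue mean were picked by that mean, so p-values of their tissue differences follow in part from the choice.

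Gstz1, which acts in the breakdown of tyrosine as maleylacetoacetate isomerase, had its lowest, median and highest liver library at 357, 442 and 517 FPKM. Kidney followed at 99.4, 108 and 125 FPKM, separate from liver and from muscle below it. Gsta3, an alpha-class enzyme known for detoxifying aflatoxin in mice, stood at 127, 479 and 563 FPKM in liver and at 20.9, 32.1 and 46.6 in lung, which overlapped kidney. Gstt1, of the theta class, was at 57.5, 147 and 189 FPKM in liver and 44.2, 52.3 and 71 in kidney, where the ranges overlapped. The liver excess over the mean of the other tissues was 4.22 ± 0.10 for Gstz1, 6.03 ± 0.19 for Gsta3 and 3.43 ± 0.18 for Gstt1 (log2 differences, limma, adjusted p of 4.24e-25, 4.13e-22 and 2.36e-16).

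The mu class, 7 neighbouring genes on chromosome 3 (107895821 to 108044894, GRCm38), held genes with different leading organs. Gstm3 was detected in liver alone, at a mean of 134 ± 99.3 FPKM (SD, n = 6), and its next highest mean was 0.309 FPKM in lung. Gstm5 went the other way, with 90.8 ± 14.7 FPKM in kidney, 67.1 ± 10.6 in muscle and 11.9 ± 2.88 in liver. Gstm6 (58 ± 22.1 FPKM) and Gstm4 (74.9 ± 36 FPKM) were highest in liver and separate from all other tissues, and Gstm7 was next highest in heart (19.96 ± 2.05 FPKM against 44.1 ± 15.7 in liver) that overlapped liver. Gstm2 was the most even of the 7, from 6.76 FPKM in tumor to 83.5 in liver. These levels can depend on how reads of shared sequence were assigned: 28.8% of the 50-base words of Gstm3 and 18.9% of those of Gstm1 occur in another gene, against 0% for Gstm4 and Gstm5.

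The alpha-class neighbours on chromosome 9 also differed in their leading organ. Gsta2 had 122 ± 33.8 FPKM in kidney, 10.3 ± 6 in liver and 10.1 ± 7.08 in tumor, and it shares 49.8% of its 50-base words with other genes, most with Gsta1. Gsta4, which removes the lipid peroxidation product 4-hydroxynonenal, reached 52.5 ± 3.44 FPKM in heart and 39 ± 12.4 in lung, with all neighbours in the order of the 6 tissues overlapping. Gsto1, of the omega class, was at 68 FPKM in heart, 64.8 in liver, 64.4 in lung and 38.7 in tumor, again with overlapping neighbours. It was the highest of the 48 genes in the tumor. Gstk1, a mitochondrial and peroxisomal enzyme, ranged from 19.5 FPKM in lung to 85.6 in liver and was below the detection rule in tumor (0.825 FPKM). Gstp1, the pi-class enzyme, had 6.57 ± 2.26 FPKM in liver; it shares 33.7% of its 50-base words with Gstp2, so this level is uncertain.

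The Ugt genes were almost entirely genes of liver and kidney. All 18 had their highest mean in one of these organs, 11 in liver and 7 in kidney, and in all 18 that organ's libraries were separate from every other tissue. Ugt2b5 stood at 288, 434 and 585 FPKM in liver (lowest, median and highest library) and at 1.07, 2.02 and 2.83 in kidney. Ugt2b38 stood at 6.33, 8.28 and 13.3 FPKM in liver and at 138, 147 and 190.4 in kidney. The liver mean of Ugt2b5 was 224 times its kidney mean, and the kidney mean of Ugt2b38 was 17.3 times its liver mean. Liver minus kidney was 7.21 ± 0.15 for Ugt2b5 and -4.002 ± 0.12 for Ugt2b38 (log2 scale, limma, adjusted p = 1.56e-26 and 2.47e-22). The pair was shown for its opposite levels, so these p-values follow from that choice. Of the 50-base words of Ugt2b5, 34.8% occur in Ugt2b38, so some reads of one may have been counted in the other. Ugt2b36, which shares only 0.285% of its words, was at 141, 314 and 379 FPKM in liver and at most 0.0885 in kidney.

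Along chromosome 5 (86889767 to 87591594), 11 of the 48 genes follow each other, with Ugt2b34, Ugt2b1, Ugt2b35, Ugt2b36 and Ugt2b5 at one end, all highest in liver, then Ugt2b37 (kidney, 23 ± 4.79 FPKM against 4.61 ± 3.18 in liver), Ugt2a3 (liver, 114 ± 32.9 FPKM), Ugt2b38 (kidney), and the sulfotransferases Sult1b1 (liver), Sult1d1 (kidney) and Sult1e1 (liver). The order along the chromosome thus alternated between the organs from Ugt2b5 on. Ugt2b34 was at 139.8 ± 40.8 FPKM in liver and 5.91 ± 1.87 in kidney, and Ugt2b1 (107 ± 59.5 FPKM) and Ugt2b35 (62.1 ± 14.4 FPKM) were listed at 0 in all 6 kidney libraries.

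The Ugt1a cluster on chromosome 1 (88055388 to 88220002) also mixed liver and kidney genes, within a single locus whose 3 last exons are common to all 8 genes. In chromosomal order they are Ugt1a10, Ugt1a9, Ugt1a7c, Ugt1a6b, Ugt1a6a, Ugt1a5, Ugt1a2 and Ugt1a1. Ugt1a1 stood at 25.9, 54.6 and 75.1 FPKM in liver and 0.16, 0.365 and 0.653 in kidney. Ugt1a7c stood at 0.124, 0.294 and 0.526 FPKM in liver and 39.9, 47.4 and 56.9 in kidney. The ratio of the means was 133 in favour of liver for Ugt1a1 and 158 in favour of kidney for Ugt1a7c. Ugt1a9 (23.5 ± 15.6 FPKM), Ugt1a6b (15.3 ± 7.07), Ugt1a5 (14.2 ± 5.18) and Ugt1a6a (2.49 ± 0.858) were liver genes. Ugt1a10 (2.53 ± 1.82 FPKM) and Ugt1a2 (2.75 ± 2.24) were kidney genes at low level. Since 52.1% to 79.8% of the 50-base words of each occur in another gene, these levels rest on how the authors' counting assigned the shared exons, which no label describes.

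**Figure D2:**
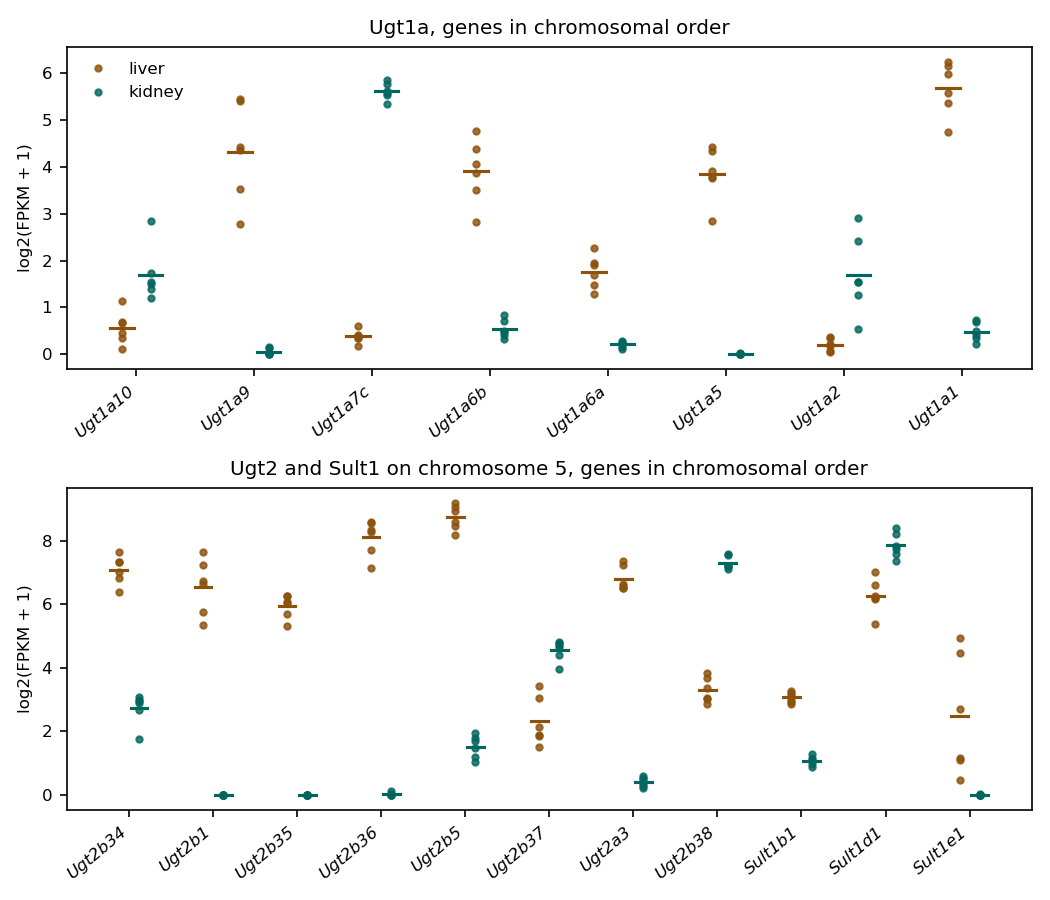
log2(FPKM + 1) in the 6 liver (brown) and 6 kidney (green) libraries for the Ugt1a cluster (top) and for the 11 neighbouring genes on chromosome 5 (bottom), in chromosomal order; points are libraries and bars are means. Ugt1a10, Ugt1a7c, Ugt1a2, Ugt2b37, Ugt2b38 and Sult1d1 have their green points above the brown ones, and the other 13 genes have the opposite order.

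Ugt1a7c was the only Ugt gene detected outside liver and kidney. It was at 1.48 ± 0.736 FPKM in lung and 3.24 ± 1.02 in tumor, where every library reached at least 1.4 FPKM. Ugt3a1 and Ugt3a2, neighbours on chromosome 15, belong to a family that uses sugars other than glucuronic acid. Ugt3a2 stood at 316, 369.6 and 452 FPKM in kidney and 125, 160.2 and 207 in liver, without overlap, and Ugt3a1 at 104 ± 10.4 and 23.2 ± 12.1. Liver minus kidney was -1.19 ± 0.11 for Ugt3a2 (limma, adjusted p = 1.17e-10).

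Low values of 7 liver transcripts in other organs were set against their liver means. Alb in heart was 0.0347% of its liver mean, and Ugt2b5 and Ugt2b36 there were 0.0334% and 0.031% of theirs. The others in heart ran from 0.019% for Ugt2b1 to 0.0465% for Sult2a8, and Alb itself varied from 1.46 to 53.6 FPKM between heart libraries. In muscle the shares ran from 0.0103% for Gstm3 to 0.0565% for Ugt2b1, with Alb at 0.0364%. In lung Gstm3 was at 0.231% and Alb at 0.0122%. In kidney Alb was 0.00749% of its liver mean, Ugt2b36 0.00715% and Sult2a8 0.00189%, and Ugt2b1 was listed at 0. Higher shares were those of Ugt2b5 at 0.446% of its own liver mean, Ugt2a3 at 0.2997% and Gstm3 at 0.0583%, and Ugt2b5 shares sequence with the kidney gene Ugt2b38. The part of liver RNA in the low values outside liver was not tested.

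Among the sulfotransferases, Sult1a1, which acts on phenols, was detected in 5 tissues. It stood at 226, 293 and 457 FPKM in liver, 21.5, 43.7 and 91.7 in lung, 27.5, 41 and 64.7 in muscle and 7.8, 8.73 and 15 in kidney, and liver was separate from the rest. Kidney was thus the lowest of the 5 organs for Sult1a1. Sult1d1, which acts on catecholamines, was highest in kidney (163, 219 and 335 FPKM), followed by liver (40.3, 73.6 and 128) without overlap.

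Sult2a8, of the family that sulfates steroids and bile acids, was detected in liver only, at 32.4, 89.2 and 192 FPKM, with at most 0.18 FPKM in a library of another tissue. Sult1c2 was a kidney gene at 29.4, 38.7 and 47.8 FPKM, with 0.103, 1.34 and 1.81 in liver. Sult1b1, a thyroid hormone sulfotransferase (7.45 ± 0.965 FPKM), Sult5a1 (4.51 ± 1.72), Sult2a7 (3.61 ± 2.12) and the estrogen sulfotransferase Sult1e1 (9.89 ± 12.6) had their highest means in liver at lower levels, and Sult1e1 varied so much there that its lowest liver library (0.398 FPKM) overlapped muscle.

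**Figure D3:**
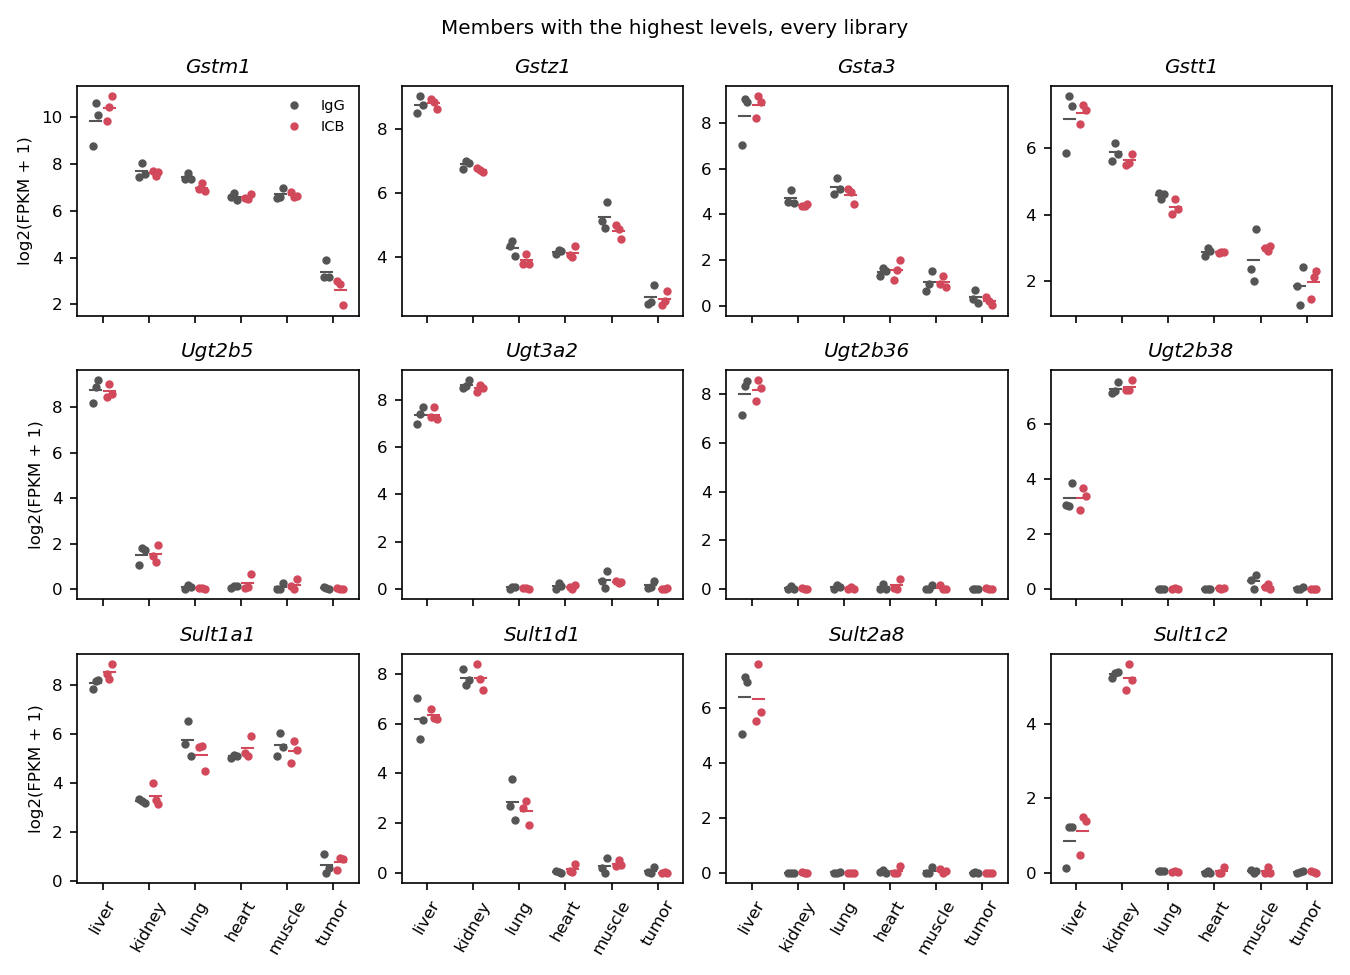
log2(FPKM + 1) in every library for the 4 genes of each family with the highest tissue mean, by tissue and treatment (grey IgG, red ICB; points are libraries, bars are group means). Ugt2b38, Ugt3a2, Sult1d1 and Sult1c2 peak in kidney and the 8 others in liver, and the grey and red points of a tissue largely overlap.

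Tested against the mean of the other 5 tissues, 37 of the 43 detected genes were higher in liver and 2 were lower, where 34% of the 16123 genes tested were higher and 47.6% lower (limma, adjusted p under 0.05). The median difference was 3.35 for the 43 genes and -0.16 for all genes tested. In kidney 20 were higher and 19 lower (33% and 44.4% of all genes), with a median of -0.24 that turned to 0.55 on the TPM scale, where each library is rescaled to a common sum. In lung 8 were higher and 28 lower (34.1% and 45.9%), in heart 7 and 33 (27.7% and 50.2%), in muscle 3 and 34 (31% and 49.8%) and in tumor 2 and 38 (38.6% and 47.4%). The 2 genes higher in tumor than in the mean of the organs were Gsta2 (0.75 ± 0.25) and Ugt1a7c (0.39 ± 0.12). These are means of log values: in FPKM the tumor means, 10.1 and 3.24, lay below the mean of the 5 organ means (27.04 and 10.2), which kidney raises, and above 3 and 4 of the 5 organs. The 2 lower in liver were Ugt1a7c (-1.60 ± 0.12) and Gstm5 (-0.54 ± 0.12). Compared directly, 30 were higher in liver than in kidney and 12 lower (31.4% and 32.8% of all genes), with a median of 2.08. Most genes of any kind differed between tissues: in either direction 81.6% passed for liver, 77.4% for kidney, 80% for lung, 77.9% for heart, 80.8% for muscle, 86.1% for tumor and 64.2% for liver against kidney. The counts describe the genes that passed the filter, and 16 of them were detected in 1 tissue only and so had to differ.

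The split and some medians moved with the processing. The kidney median of the 43 genes, -0.24, became 0.48 with a pseudocount of 0.1 and 0.97 with limma-voom on recovered reads, was 0.08 without a filter (48 genes), and stayed at -0.25 under median-of-ratios scaling. On the TPM scale more genes reached the filter (47 of these and 18111 in all), and the median of all genes shifted to -0.83 in liver, -0.55 in heart, -0.54 in muscle, 0.64 in lung, 0.75 in tumor and -0.66 in liver minus kidney. Of the conjugation genes called there, 35 of 42 were higher in liver, 25 of 39 in kidney, 17 of 39 in lung and 7 of 43 in tumor. Of all genes called there, 2235 of 16506 were higher in liver, 6465 of 13510 in kidney, 11817 of 15384 in lung and 11059 of 16203 in tumor. With limma-voom 24 of 35 called conjugation genes were higher in kidney and 11 of 33 in lung. Of all genes called with limma-voom, 5873 of 11863 were higher in kidney and 6247 of 12608 in lung.

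Genes that supply the donors of these reactions had distributions of their own. Papss2, which makes PAPS for sulfation, stood at a mean of 106 FPKM in kidney and 63.9 in liver, and Ugdh, which makes UDP-glucuronic acid, at 35.1 in liver and 10.8 in kidney. Ggt1, which starts the breakdown of glutathione conjugates, was at 262 FPKM in kidney and 0.0386 in liver. The export pumps Abcc2 (99.7 in liver, 42.9 in kidney) and Abcc3 (84.9 in liver, 0.934 in kidney) were liver-high and Abcg2 (38.5 in kidney, 9.02 in liver) was kidney-high. Slc7a11, the cystine importer for glutathione synthesis, had 3.79 FPKM in tumor and a mean of at most 0.141 in any organ. Mgst1, a membrane-bound glutathione transferase outside the 48 genes, reached 1371 FPKM in liver.

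The design also sets ICB against IgG within each tissue. No conjugation gene passed the test in any tissue, and few genes of any kind did: 0 of 11257 genes tested in liver, 2 of 11901 in kidney (0.0168%), and 0 in lung, heart, muscle and tumor. By unadjusted p under 0.05 the conjugation genes numbered 2 of 40 in liver (3.37% of all genes), 1 of 27 in kidney (3.71%), 1 of 19 in lung (4.35%), 0 of 14 in heart (4.54%), 0 of 14 in muscle (5.33%) and 3 of 10 in tumor (6.87%), and limma-voom on recovered reads called 0 in each tissue. For a single gene, the smallest two-sided p of an exact permutation test is 0.1 at this size (3 against 3).

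In liver, Gstp1 and Sult1a1 had groups that did not overlap, both higher with ICB (2 of 40, where 6.84% of all genes had such groups and 3.26% had them with ICB higher). Gstp1 stood at 3.64, 7.42 and 3.81 FPKM in the IgG libraries and 8.86, 8.07 and 7.62 with ICB. All 3 ICB libraries were above the IgG ones, with IgG replicate 2 just below the lowest of them. The difference was 0.68 ± 0.25 on the log2(FPKM + 1) scale (± SE with 3 libraries in each group, here and for the treatment differences that follow; 95% interval 0.11 to 1.25, limma, adjusted p = 0.999).

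Sult1a1 stood at 226, 286 and 290.4 FPKM with IgG and 349, 296 and 457 with ICB in liver. The groups were apart by a narrow margin between IgG replicate 3 and ICB replicate 2. Its difference was 0.44 ± 0.23 (adjusted p = 0.999, limma), and 0.27 without ICB replicate 3. Of the 40 genes 23 were above 0 (45.6% of all genes), with a median of 0.04 against -0.02 for all genes; the Ugt genes had a median of -0.06 (5 of 15 above 0) and the Gst genes 0.16 (13 of 17). These counts rest on single libraries: without IgG replicate 1 the number above 0 was 8 of 40 (median -0.21), without ICB replicate 2 it was 18 (median -0.15), and without IgG replicate 3 or ICB replicate 1 it was 31 each (medians 0.23 and 0.19).

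Sult2a7, a liver steroid sulfotransferase, had the smallest p in liver. It stood at 3.2, 7.09 and 4.96 FPKM with IgG and 1.7, 3.25 and 1.45 with ICB. The groups met at IgG replicate 1 and ICB replicate 2, and the other values of IgG were above those of ICB. The difference was -0.95 ± 0.30 (adjusted p = 0.999, limma). In 1 fit of all 36 libraries, which takes the spread from all tissues although the transcript was detected in liver only, the adjusted p was 0.000772, and over its 15 alternatives it ranged from 0.000772 to 1.00. By limma's F test of whether the ICB difference varied between tissues, Sult2a7 was also the lowest (adjusted p = 0.0939), and 0 of the 43 genes passed, where 0.0868% of all genes did and 1 of the 43 had an unadjusted p under 0.05 (6.2% of all genes). Without liver IgG replicate 1 it passed (adjusted p = 0.00123), as it did without liver ICB replicate 2 (0.00104) and without tumor IgG replicate 3 (0.0499). Over its 43 alternatives this p ranged from 0.00104 to 1.00. The next in this test were Gstm2 (adjusted p = 0.871), Gstp1 and Gstm1 (both 0.898), by limma.

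**Figure D4:**
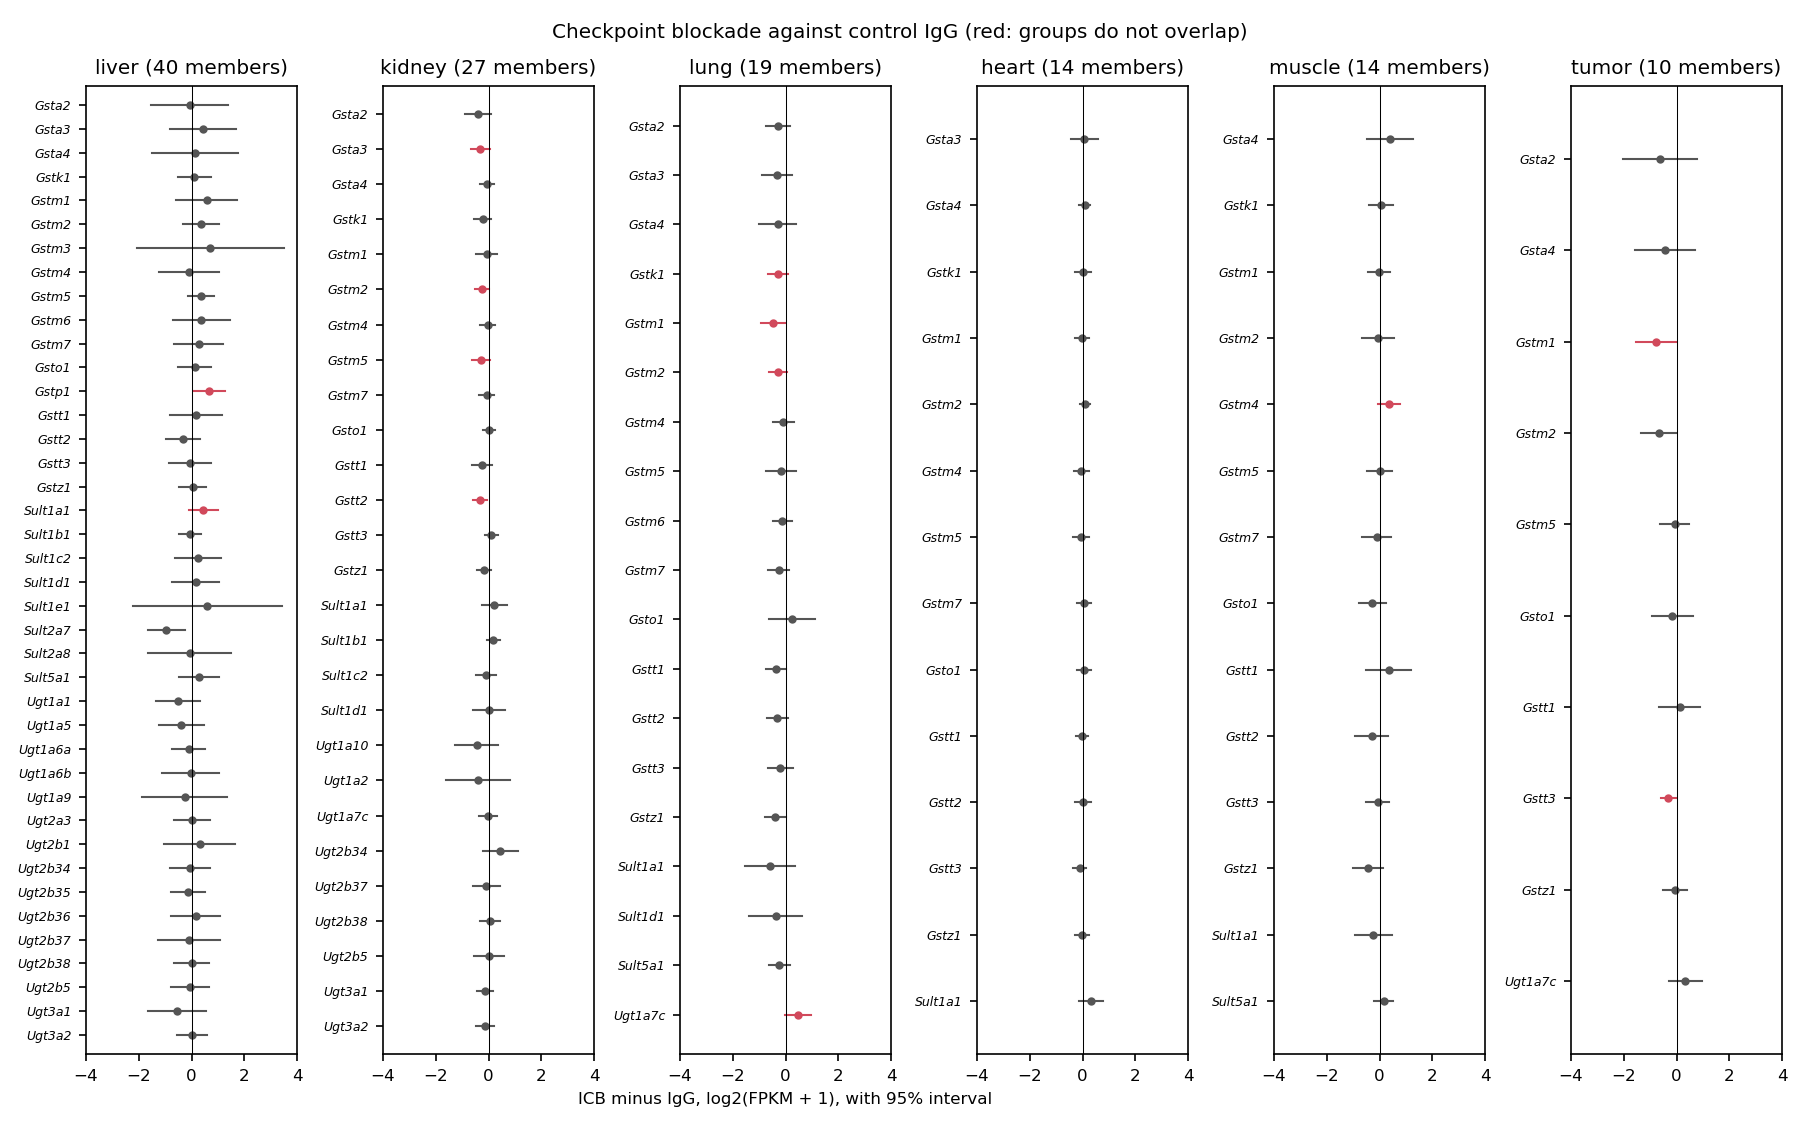
ICB minus IgG on the log2(FPKM + 1) scale for every conjugation gene tested in each tissue, with the 95% interval from limma; red marks genes whose 3 ICB and 3 IgG libraries do not overlap. Intervals are wide in liver and narrow in heart, most cross 0, and none of the genes passed after adjustment.

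The liver libraries differed among themselves across both treatments. Over the 40 genes the median ratio of the highest to the lowest liver library was 3.2, and it was 3.02 in tumor (10 genes), 1.98 in muscle (14), 1.92 in lung (19), 1.49 in kidney (27) and 1.32 in heart (14). IgG replicate 1 was the lowest of the 6 liver libraries for 25 of the 40 genes, where it was the lowest for 20.6% of all genes, and ICB replicate 1 was the lowest for 7 (25.4% of all genes).

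Gstm3 shows the pattern, at 9.2, 222 and 125 FPKM in the IgG and 28.6, 166 and 251 in the ICB libraries. Gsta4 was at 6.75, 41.2 and 43.1 FPKM with IgG and 12.9, 40.9 and 32.3 with ICB. Sult1e1 was at 29.97, 1.15 and 0.398 FPKM with IgG and 21, 1.25 and 5.54 with ICB. Replicate 1 of each group was thus low in Gstm3 and Gsta4 and high in Sult1e1, so that 1 library of each treatment shared the pattern. Sex-biased liver genes were compared between these replicates and the other 4 libraries. Of the 5 female-biased genes on the list, Cyp17a1, a steroid hydroxylase (72.2 and 71.1 FPKM against 13.2 to 18.6), and Cux2 (5.62 and 3.39 against 0.475 to 3.32) were higher in both, and the other 3 overlapped. Of the 6 male-biased genes, Hsd3b5 was lower in both (2.02 and 7.38 FPKM against 7.98 to 51.4), Cyp7b1 was higher in both (182 and 132 against 59.8 to 99.8), and 4 overlapped. The female-biased sum was 84.9 and 78.5 FPKM in these libraries and 16.1 to 27.1 in the other 4, most of it from Cyp17a1, while the male-biased sum overlapped (3661 and 3184 FPKM against 1787 to 3642). All 6 liver libraries held Y-linked transcripts (summed 18.3 to 32.8 FPKM) and at most 0.00455 FPKM of Xist. The part of sex-biased expression in these values was not tested. Without both libraries, an alternative chosen after the data were seen, 0 of 40 genes passed, 16 were above 0 and their median was -0.04, with differences of 0.48 for Gstp1, 0.35 for Sult1a1 and -1.11 for Sult2a7.

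**Figure D5:**
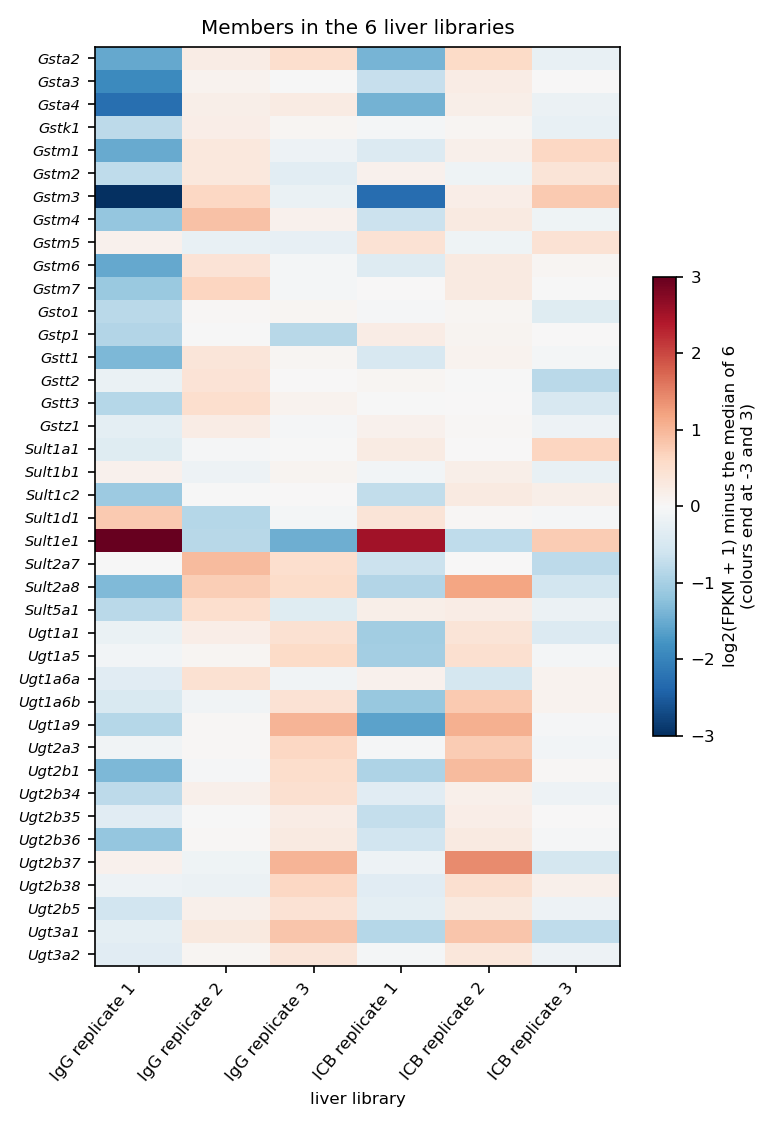
Each gene's log2(FPKM + 1) in the 6 liver libraries minus its median over the 6 (colour, ending at -3 and 3), for the 40 genes tested in liver. The columns of IgG replicate 1 and ICB replicate 1 are blue in Gsta2, Gsta3, Gsta4, Gstm3 and Sult2a8 and red in Sult1e1.

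In kidney, 8 of 27 genes were above 0 (44.9% of all genes), with a median of -0.08 against -0.02 for all genes, and 12 of the 14 Gst genes were below 0. On the TPM scale, where 34 of the genes reached the filter, 20 were above 0 with a median of 0.03, and that of all genes was 0.09. In 4 of the 27 the groups did not overlap (8.66% of all genes), and all 4 were lower with ICB (5.22% of all genes): Gstt2, Gstm2, Gsta3 and Gstm5. Gstt2, of the theta class, stood at 98.6, 109 and 102 FPKM with IgG and 85.8, 74.6 and 87.1 with ICB. Its groups were separate, and the difference was -0.32 ± 0.11 (adjusted p = 0.992, limma).

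Gsta3 stood at 22.6, 32.3 and 21.5 FPKM with IgG and 19.9, 19.4 and 20.8 with ICB in kidney. IgG replicate 2 carried most of this difference of -0.31 ± 0.15, which was -0.13 without it. Gstm5 stood at 93.7, 116 and 89.7 FPKM with IgG and 86.7, 71.2 and 87.3 with ICB, a difference of -0.28 ± 0.14 that was -0.17 without IgG replicate 2 and -0.19 without ICB replicate 2. Gstm2 stood at 23.3, 29.2 and 24.1 FPKM with IgG and 20.4, 21.7 and 22.4 with ICB, a difference of -0.23 ± 0.11, and -0.13 without IgG replicate 2. In each gene the highest ICB library lay close to the lowest IgG library, and none of the 3 passed (adjusted p = 0.992 each, limma). Beside these, 7 of 7 tested macrophage markers had higher means in the ICB kidneys (summed level 54.3 to 58.6 FPKM with IgG and 65.3 to 131 with ICB), 7 of 7 tested fat cell markers had higher means (23.1 to 167 and 55.2 to 237 FPKM) and 6 of 6 erythroid markers had lower means (510.2 to 704 and 222 to 361 FPKM). Of 7 tested proximal tubule markers 2 had higher and 5 lower means, and their sums overlapped ( 10200.5 to 17067 and 10561 to 14344 FPKM). The part of these other cells in the differences was not tested.

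In lung, 2 of 19 genes were above 0, where 47.6% of all genes were, with a median of -0.29 against -0.01 for all genes. On the TPM scale 7 of 25 were above 0, with a median of -0.10 against 0.19 for all genes, and without IgG replicate 2 the median was -0.15 (3 of 19 above 0). The number above 0 was 4 without IgG replicate 1 or ICB replicate 1, and 1 without ICB replicate 2. In 4 of the 19 the groups did not overlap (8.65% of all genes), with Gstm1, Gstm2 and Gstk1 lower (4.14% of all genes) and Ugt1a7c higher (4.5%). Gstm1 stood at 165, 198 and 164 FPKM with IgG and 122, 146 and 114 with ICB. Every ICB library was below every IgG library, and the difference was -0.47 ± 0.19 (adjusted p = 0.988, limma).

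Gstm2 in lung stood at 48, 46.4 and 42.1 FPKM with IgG and 33.3, 38.6 and 39.1 with ICB, a difference of -0.29 ± 0.15. Gstk1 stood at 19.7, 26 and 19.4 FPKM with IgG and 17.4, 18.8 and 15.8 with ICB, a difference of -0.30 ± 0.16 that was -0.17 without IgG replicate 2. Ugt1a7c stood at 0.882, 1.08 and 1.18 FPKM with IgG and 2.89, 1.63 and 1.19 with ICB, a difference of 0.46 ± 0.21, with ICB replicate 3 just above IgG replicate 3, and it was 0.23 without ICB replicate 1. The adjusted p was 0.988 for each (limma). Beside these, 8 of 8 lung epithelium markers had lower means with ICB (summed level 34836 to 55889 FPKM with IgG and 21103 to 32369 with ICB), and 8 of 8 macrophage markers had higher means (143 to 164 and 217 to 258 FPKM). The 6 erythroid markers all had lower means (1578 to 15641 and 346.7 to 2114 FPKM). The part of these cells in the lung values of the Gst genes was not tested.

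In tumor, 2 of 10 genes were above 0 (48.2% of all genes), with a median of -0.23 against -0.01 for all genes. In 2 the groups did not overlap (13.1% of all genes), both lower with ICB (7.49%): Gstm1 and Gstt3. IgG replicate 3 stood apart from the other IgG tumors in several genes, with Gsta2 at 21.9, 14.5 and 3.48 FPKM in the 3 IgG tumors, Gsta4 at 32.3, 23.4 and 7.99 and Gsto1 at 50.4, 51.2 and 23.3. Without it 3 of 10 were above 0 with a median of -0.43, and 0 passed. Gstm1 stood at 7.87, 13.8 and 7.97 FPKM with IgG and 7.07, 6.36 and 2.91 with ICB, a difference of -0.78 ± 0.32 (adjusted p = 0.707, limma) that was -0.45 without ICB replicate 3. Gstt3 stood at 1.56, 2 and 1.6 FPKM with IgG and 1.03, 1.3 and 1.27 with ICB, near the detection level, a difference of -0.30 ± 0.12 with the same adjusted p. ICB replicate 3 was lowest in Gstm1 and ICB replicate 1 in Gstt3. The summed skeletal muscle markers reached 352 FPKM in an ICB tumor and at most 10.4 with IgG. Of the 6 erythroid markers the 5 tested had lower means with ICB, with sums that overlapped (35.1 to 216 FPKM with IgG and 52.8 to 130.1 with ICB). The part of these cells was not tested.

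In heart 8 of 14 genes were above 0 (51.3% of all genes). It had 0 of 14 genes with separate groups (9.76% of all genes), and its differences stayed between -0.11 and 0.33. The number above 0 in heart was 3 of 13 without IgG replicate 1, 12 of 13 without IgG replicate 2 and 13 of 16 on the TPM scale. On that scale the heart median was 0.09 for these genes and 0.09 for all genes. Muscle had 6 of 14 above 0 (50.6% of all genes) and 1 of 14 with separate groups (11.6%, and 6% with ICB higher), Gstm4, at 5.49, 7.04 and 8.46 FPKM with IgG and 9.08, 9.17 and 9.21 with ICB (0.36 ± 0.17, adjusted p = 0.876, limma). This difference was 0.22 without IgG replicate 1. The number above 0 in muscle was 10 without IgG replicate 3, and 4 without IgG replicate 1 or ICB replicate 1. In the ICB muscles 7 of 7 tested macrophage markers had higher means (summed level 89.5 to 209 FPKM with IgG and 142 to 399 with ICB), 6 of 7 tested fat cell markers lower means (895 to 2157 and 537 to 1024) and 5 of 5 tested erythroid markers lower means (978 to 1519 and 284 to 877), and their part was not tested.

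Over the mean of the 5 organs, which 13 of the genes could enter, 0 passed (0.258% of all 8924 genes did) and 2 had an unadjusted p under 0.05 (8.9% of all genes). Gstt2 differed by -0.25 ± 0.10 (limma, adjusted p = 0.371) and Gstz1 by -0.20 ± 0.08 (adjusted p = 0.446), and 4 of the 13 were above 0 (40.7% of all genes), with a median of -0.02. On the TPM scale 11 of 14 were above 0 with a median of 0.05, and that of all genes was 0.06. In FPKM the number above 0 was 1 without liver IgG replicate 1, lung IgG replicate 3 or muscle IgG replicate 1. It was 7 without muscle IgG replicate 3 and 8 without liver IgG replicate 2. Gstk1 (-0.07 ± 0.09) and Gstt3 (-0.07 ± 0.10) lay near 0. Gstt2 was below 0 in liver (-0.33), kidney (-0.32), lung (-0.32) and muscle (-0.29) and at 0.02 in heart.

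The 7 lists of related functions (other conjugating enzymes, glutathione supply and breakdown, UDP-glucuronic acid supply, PAPS supply, export pumps, NRF2 target genes and regulators) had no member that passed in any tissue or in the organ mean. In the tumor 11 of 13 tested NRF2 targets, the genes of the antioxidant response, were below 0 with a median of -0.19. Of all genes tested in tumor 48.2% were above 0, with a median of -0.01. Among the NRF2 targets Nqo1, a quinone reductase, had the smallest p (17.9, 19.2 and 14.3 FPKM with IgG and 12.5, 6.33 and 6.33 with ICB; limma, adjusted p = 0.692). Glutathione supply genes in the tumor had a median of -0.22 (8 of 10 below 0). This list shares Gclc, Gclm and Slc7a11 with the NRF2 targets. How far both lists rest on tumor IgG replicate 3, which stood apart in several genes, was not tested. In liver Hmox1, which breaks down heme, was at 21.2, 14.8 and 15.8 FPKM with IgG and 60.5, 17.6 and 59.8 with ICB (adjusted p = 0.999, limma), beside 8 of 8 macrophage markers above 0 there (summed 339.6 to 544 FPKM with IgG and 437 to 1284 with ICB). The UDP-glucuronic acid and PAPS supply lists had medians between -0.15 and 0.05 in the 6 tissues.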

How the data were processed

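The authors deposited 1 table of FPKM values for 36 libraries. Per the submitters' processing notes, the aligner was HISAT2 2.1.0, the build mm10, and edgeR is listed as a tool. The edgeR version, read counter, annotation and strandedness were not given in the sources used here. Per the labels, RNA was extracted with TRIzol and libraries were TruSeq. Of 18781 rows, 15 without a symbol (0.0834% to 0.374% of reads) and symbols shared by more than 1 row were left out, which left 18760. Read counts were recovered from the FPKM steps in all 18781 rows (tolerance 0.001 reads) and were used for depth and for limma-voom. Set against the recovered reads, the deposited FPKM carry normalization factors of 0.532 to 1.6 that differ by tissue.

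Values were tested as log2(FPKM + 1), a scale that understates changes of low genes, with limma 3.58.1 in R 4.3.3 (trend, Benjamini-Hochberg over all genes tested, threshold 0.05). ICB was set against IgG within each tissue's 6 libraries for genes with at least 1 FPKM in 3 of them. Tissue differences, the organ mean and the F test of differences between tissues came from 1 fit of 36 libraries with 12 group means. Python 3.11.15, Biopython 1.88 and RefSeq promoter sequences (GRCm38.p6) served for the alignments. The share of 50-base words found in other genes was counted on GENCODE transcripts. The fits were tested on simulated data.

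Genes were named by rule: the 4 genes per family with the highest tissue mean, and, in each ICB comparison, those called or else up to 4 with the smallest p whose groups did not overlap. Other genes were named after their values were seen. The gene families and the lists were chosen with earlier results of these data known, although membership itself goes by symbol alone. Other pseudocount, filter, scaling (median of ratios, TPM), trend and voom settings, a shared fit and leaving out each library in turn were tried. So was a block by title number, the number in the title of each sample, which is not the replicate number used here.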

Additional observations from a re-analysis of the deposited data

How the results depend on the processing

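Of 583 recomputed counts of conjugation genes called in either direction, detected or highest in an organ, 578 stayed within 1.5 times the main count, and the other 5 concern comparisons with 0 calls. Much of this was fixed by the main counts, which were 0 for ICB and 36 to 42 of 43 genes for tissue comparisons. It therefore says little about stability. Counts by direction were not among the 583 and moved more. On the TPM scale calls of higher conjugation genes went from 8 to 17 in lung and from 2 to 7 in tumor. Over all genes such calls went from 5495 to 11817 and from 6227 to 11059, so this shift was shared by all genes. ICB differences above 0 went from 8 of 27 to 20 of 34 in kidney and from 4 of 13 to 11 of 14 in the organ mean. The medians of all genes moved there too, from -0.02 to 0.09 and from -0.02 to 0.06. Without 1 library the number above 0 in liver ranged from 8 to 31 of 40. In liver, ICB against IgG called 1 conjugation gene (Sult2a7) in 1 fit of all 36 libraries and 1 with the block by title number. The F test between tissues called 0 to 2 when a library was left out: 1 without liver IgG replicate 1, 2 without liver ICB replicate 2 and 1 without tumor IgG replicate 3. Of 501 recomputed values of single genes 497 kept their side of the threshold and, outside the F test, their direction. This was largely fixed by how the genes were picked. None of them was called in the main fit, and those named within a tissue had groups that did not overlap. Gstk1 in the organ mean turned from -0.07 to 0.0088 on the TPM scale. Over all genes, liver ICB calls went from 0 to 65 in the shared fit and to 92 with the block, and in the organ mean from 23 to 2 with the block, 73 without a filter and 173 on the TPM scale. Libraries with the same title number deviated together only in part (median r 0.149 over 56 pairs, from -0.203 to 0.522, 36 of them over 0.1) and more than those with different numbers (median r -0.0347 over 214 pairs, 42 over 0.1). Not every same-number pair was over 0.1, so the numbers were not taken as pairs, and ICB and IgG libraries of a tissue share no number. The 95% intervals of the ICB differences reached to either side by a median of 0.84 in liver, 0.71 in tumor, 0.54 in muscle, 0.45 in lung, 0.34 in kidney and 0.27 in heart. Differences smaller than that could mostly not be told from 0 with 3 libraries a group. These intervals hold for single genes without adjustment, and to pass after adjustment a difference had to be larger. Those of Gstp1 and Sult2a7 in liver went beyond their intervals and did not pass.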

Other observations

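Other conjugating enzymes had leading tissues of their own: 11 of 22 were highest in liver, among them the bile acid conjugating enzyme Baat, at a mean of 171 FPKM. Mgst3, a membrane-bound relative of the glutathione transferases, was highest in muscle at 244.6 FPKM, with 206.8 in heart. The xenobiotic receptor Nr1i2 had 45.5 FPKM in liver. Nfe2l2, which encodes NRF2, lay between 13.3 and 23.6 FPKM in the means of all 6 tissues.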
